A study of Mus musculus with 5 samples.

Results

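The Gimap genes (GTPases of the immunity-associated protein family) were examined cell class by cell class in lung tumours of mice treated with an ERBB2 inhibitor, an anti-PD-1 antibody or both. The 8 family members named Gimap1, Gimap3, Gimap4, Gimap5, Gimap6, Gimap7, Gimap8 and Gimap9 were taken by symbol from the 32589 genes counted in every library, and 6 of these 8 had at least 1 unique molecular identifier (UMI, a tag that counts a captured RNA molecule once). The animals carried floxed alleles (Rb1 fl/fl x Trp53 fl/fl), and small cell lung cancer (SCLC) was induced in all groups by inhaled adenoviral Cre, with tumours left to grow for about 6 months before therapy. Single-cell RNA sequencing (scRNA-seq) gave 5 libraries, 1 for each group. The vehicle library came from PBS treatment, the anti-PD-1 library from the antibody at 10 mg/kg and the ERBB2i library from mubritinib, an ERBB2 kinase inhibitor, at 10 mg/kg by mouth. The combination library had received both agents, and the combination in response library carried the same label with the addition that the animal was in response. Doses were given every 3 days. Each group held 1 library, so no difference has a replicate check, no test was run, and all intervals are exact 95% intervals that cover counting error only.

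GIMAP proteins are guanine nucleotide-binding proteins found mainly in lymphocytes, where several of them sit on intracellular membranes and act in lymphocyte survival. Loss of Gimap5 in rodents leads to a severe shortage of T cells, Gimap1 is needed for mature T and B cells, and Gimap3, Gimap4 and Gimap5 are known to be regulated while thymocytes mature. Precursor T cells carry Rag2, a subunit of the recombinase that assembles antigen receptor genes, and Dntt, the polymerase that adds bases at their junctions, and both are switched off in mature T cells.

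The 8 genes lie in a single cluster of 123666 bases on mouse chromosome 6 (GRCm38.p6, the patch release of mm10; RefSeq). From the centromere side the order is Gimap8 (48647186 to 48660875), Gimap9 (48676121 to 48679116), Gimap4 (48684578 to 48692062), Gimap6 (48701583 to 48708244), Gimap7 (48718621 to 48724636), Gimap1 (48739047 to 48743795), Gimap5 (48746197 to 48754200) and Gimap3 (48764464 to 48770851). Gimap6 and Gimap3 are on the minus strand and the other 6 on the plus strand. The promoters of 4 members are shown because their levels moved apart between T-lineage cells with and without a Rag2 or Dntt UMI. Gimap3 and Gimap4 had the largest differences, Gimap6 an intermediate difference and Gimap9 the smallest. Each stretch holds 250 bases before and 50 bases from the RefSeq start site in the direction of transcription (chr6:48770802-48771101 on the minus strand, chr6:48684328-48684627 on the plus strand, chr6:48708195-48708494 on the minus strand and chr6:48675885-48676184 on the plus strand). Capitals mark exact matches on either strand to GTAAACA (FOXO), AGGAAGT (ETS) or CCACCC (KLF).
Gimap3 promoter: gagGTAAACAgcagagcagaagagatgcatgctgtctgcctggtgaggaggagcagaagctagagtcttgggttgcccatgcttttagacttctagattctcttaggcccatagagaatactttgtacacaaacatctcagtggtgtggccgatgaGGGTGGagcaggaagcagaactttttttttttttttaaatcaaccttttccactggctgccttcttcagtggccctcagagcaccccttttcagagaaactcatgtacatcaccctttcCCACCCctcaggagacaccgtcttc
Gimap4 promoter: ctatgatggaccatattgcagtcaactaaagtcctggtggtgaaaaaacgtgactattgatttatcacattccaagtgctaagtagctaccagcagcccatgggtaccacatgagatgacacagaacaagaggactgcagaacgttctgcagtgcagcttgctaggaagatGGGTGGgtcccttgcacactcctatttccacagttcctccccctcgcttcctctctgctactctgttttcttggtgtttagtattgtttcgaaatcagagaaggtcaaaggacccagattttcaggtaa
Gimap6 promoter: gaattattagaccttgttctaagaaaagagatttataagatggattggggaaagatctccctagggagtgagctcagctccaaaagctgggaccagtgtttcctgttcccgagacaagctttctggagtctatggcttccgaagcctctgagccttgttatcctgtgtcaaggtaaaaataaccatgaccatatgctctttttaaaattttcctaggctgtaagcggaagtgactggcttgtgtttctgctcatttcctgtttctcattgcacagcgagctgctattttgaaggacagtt
Gimap9 promoter: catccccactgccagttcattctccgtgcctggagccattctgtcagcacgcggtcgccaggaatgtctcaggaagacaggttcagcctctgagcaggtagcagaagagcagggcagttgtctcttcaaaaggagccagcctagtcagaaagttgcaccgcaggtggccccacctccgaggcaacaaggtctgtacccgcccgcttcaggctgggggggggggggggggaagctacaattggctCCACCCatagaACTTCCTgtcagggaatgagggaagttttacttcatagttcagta

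All 8 members matched a promoter entry, and Gimap8 has 2 start sites, which gives 9 promoters. GTAAACA stood in 1 of the 9 promoters, that of Gimap3, and in 3.65% of 32851 mouse promoters of the same length. CCACCC stood in promoters of Gimap3, Gimap4, Gimap5, Gimap8 and Gimap9, 5 of the 9, and in 31.5% of all promoters. AGGAAGT stood in those of Gimap1, Gimap5 and Gimap9, and in 9.35% of all promoters. No member promoter held TGTGGTT (RUNX, 5.27% of all promoters), CTTTGAT (TCF/LEF, 3.73%), CAGCTG (E-box, 16.3%) or the NF-kB consensus (0.155%). The promoters of Gimap6 and Gimap7 held none of the motifs searched. These matches are letters in a window and no binding was measured.

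Of 71228 cells retained after filtering, 13845 were T-lineage cells, with at least 1 UMI of Cd3e, Cd3d or Cd3g. They were split by any UMI of Rag2 or Dntt, and by any UMI of Cd4 and of Cd8a. NK cells had a UMI of Ncr1 or Klrb1c and none of Cd3, and B cells had at least 2 UMIs of Cd79a and Cd79b together. Barcodes in these gates that held at least as many UMIs of a neuroendocrine and epithelial tumour list as of a leukocyte list were set aside: 927 of 5322 T-lineage barcodes in anti-PD-1, 919 of 2732 in ERBB2i, 417 of 835 in combination, 47 of 7262 in combination in response and 15 of 19 in vehicle. Levels are UMIs of a gene per 1000000 UMIs summed over the cells of a class (CPM).

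The libraries differed in ways that bear on these values. Total UMIs ranged from 21624506 in combination in response to 88497833 in combination, and median UMIs per retained cell ranged from 1204 in combination in response to 6226 in vehicle. Barcodes had 24 bases in ERBB2i and combination and 27 bases in the other 3 libraries, and ratios between libraries were formed only within a format. Combination and combination in response had received the same agents but differ in format. ERBB2i and combination shared 782 barcode sequences, pairs of the other libraries shared 69 to 79, and no barcode was shared between formats. Xist had 38760 UMIs in vehicle and at most 76 in each other library. The combination in response library stood apart from its tumour label: the tumour list reached 30.0 CPM over all its retained cells, against 2369 to 7021 CPM in the other libraries. Rag2/Dntt-positive cells, a state known from the thymus, made up 5239 of its 7215 T-lineage cells and 3041 of 4395 in anti-PD-1, but 11 of 1813 in ERBB2i, 4 of 418 in combination and 0 of 4 in vehicle. Where these cells came from was not tested. All 6 T cell markers left out of the gates (Trac, Trbc2, Lck, Lat, Cd2, Cd5) were detected in the T-lineage cells of every library. The NK markers Gzma, Prf1, Klrd1, Eomes, Klre1 and Klrk1 were detected in NK cells of ERBB2i (156 cells) and combination (32 cells), the only libraries with more than 3 NK cells. Ms4a1, Ighm, Cd74, H2-Aa and Ebf1 were detected in B cells of anti-PD-1 (307 cells), ERBB2i (234), combination (138) and combination in response (134).

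Gimap1 and Gimap7 had 0 UMIs in every barcode of all 5 libraries, before any filter. In GENCODE M39 both genes lie wholly within Gm28053, a read-through gene on the same strand that joins Gimap7, Gimap1 and Gimap5 and is itself in the gene table. Only 3.48% of the exon bases of Gimap7 and 5.80% of those of Gimap1 are shared with exons of Gm28053. Among 393 protein-coding genes that lie wholly inside another gene of the same strand, 86.3% were listed at 0 in all libraries, against 12.4% of 21093 other protein-coding genes. A listed 0 for Gimap1 and Gimap7 is therefore not read here as absence of expression. How the counting treated overlapping genes was not tested. Gimap5 has 80.5% of its span inside Gm28053, so its counts may be incomplete, which was not tested. The remaining 5 members lie outside it.

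**Figure D1:**
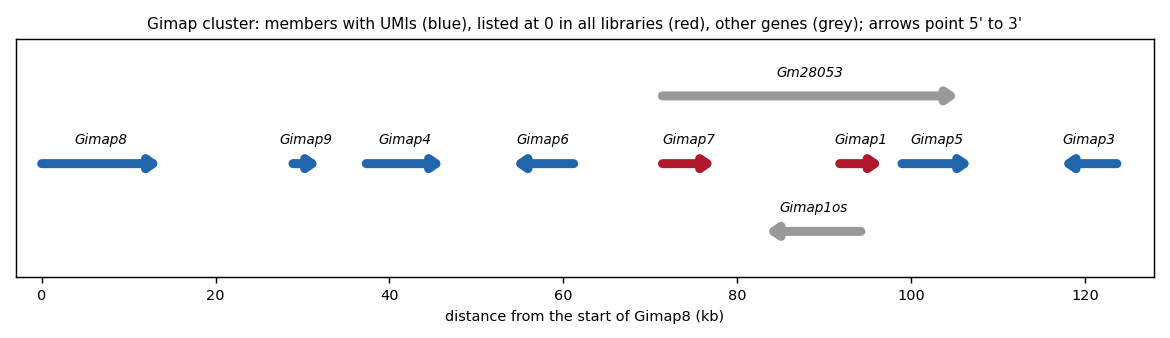
Map of the Gimap cluster drawn from GENCODE M39, with the distance from the start of Gimap8 in kilobases on the x axis. Arrows run from 5′ to 3′. The 2 members listed at 0, Gimap7 and Gimap1, lie inside Gm28053, and Gimap5 overlaps it in part.

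Gimap transcripts were lower in T-lineage cells with a Rag2 or Dntt UMI than in those without, and the members differed widely in how far apart the classes were. Both classes held 20 cells or more in combination in response (5239 and 1976) and in the anti-PD-1 library (3041 and 1354). They are called immature and mature below by this split alone. In combination in response the class called mature also carried precursor transcripts, such as Themis at 1656 CPM, against 1667 CPM in the other class. The 6 detected members together stood at 428 CPM (415 to 441) in Rag2/Dntt-positive and 2405 CPM (2335 to 2476) in Rag2/Dntt-negative cells of anti-PD-1, a log2 ratio of 2.49 (2.43 to 2.55). In combination in response they stood at 879 CPM (860 to 898) and 1936 CPM (1886 to 1987), a log2 ratio of 1.14 (1.09 to 1.19). The size in anti-PD-1 rested on the tumour-like barcodes set aside: with the gates as written the family ratio there was 1.19, and that of Gimap9 turned to -0.65. Rag2/Dntt-negative cells were at least 2-fold higher for 5 of the 6 members tested in anti-PD-1, where 13.7% of 9783 genes were, and for 4 of 6 in combination in response, where 5.56% of 10121 genes were. The median log2 ratio of the members was 3.17 in anti-PD-1 and 1.33 in combination in response, against 0.08 and -0.02 for all genes tested. Genes entered these counts with at least 50 UMIs over both classes.

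Gimap3, whose protein has been placed on mitochondria, was scarce in the immature class. It stood at 7.54 CPM (5.93 to 9.45) in Rag2/Dntt-positive and 391 CPM (364 to 421) in Rag2/Dntt-negative cells of anti-PD-1, a 51.9-fold difference. In combination in response the levels were 28.8 CPM (25.5 to 32.4) and 279 CPM (260.0 to 298.6), a 9.69-fold difference. The immature class was lower in both libraries and no interval overlapped. Gimap4, which has been linked to lymphocyte death, showed a difference of like size. It stood at 9.05 CPM (7.28 to 11.1) against 491 CPM (460 to 523) in anti-PD-1, a 54.2-fold difference, and at 33.5 CPM (29.9 to 37.4) against 388 CPM (366 to 412) in combination in response, an 11.6-fold difference.

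Gimap8, a larger member with more than a single GTPase domain, stood at 6.13 CPM (4.69 to 7.88) in the immature and 90.7 CPM (77.6 to 105.4) in the mature class of anti-PD-1. In combination in response it was already at 79.9 CPM (74.3 to 85.8) in the immature class and at 223 CPM (206 to 241) in the mature class. The fold was thus 14.8 in anti-PD-1 and 2.79 in combination in response, and the interval of the immature class in the latter overlapped that of the mature class in the former. Gimap5, the member whose loss depletes T cells, stood at 9.96 CPM (8.09 to 12.1) and 55.2 CPM (45.1 to 66.8) in anti-PD-1 and at 23.8 CPM (20.8 to 27.1) and 54.0 CPM (45.9 to 63.2) in combination in response. Its mature levels overlapped between the libraries.

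Gimap6, which has a role in autophagy, and Gimap9 were the members with the most UMIs in immature cells. Gimap6 stood at 208 CPM (199 to 217) and 1087 CPM (1040 to 1135) in anti-PD-1, a 5.23-fold difference, and at 377 CPM (365 to 390) and 664 CPM (635 to 694) in combination in response, a 1.76-fold difference. Gimap9 differed least. It stood at 188 CPM (179 to 196) and 290 CPM (266 to 315) in anti-PD-1, and at 335 CPM (324 to 347) and 329 CPM (308 to 350) in combination in response, where the intervals of the classes overlapped.

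**Figure D2:**
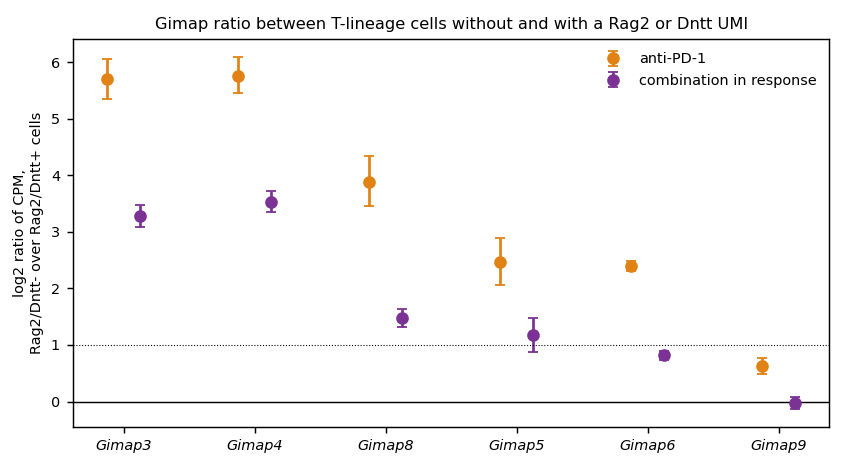
Log2 ratio of CPM between Rag2/Dntt-negative and Rag2/Dntt-positive T-lineage cells (y axis) for the 6 detected members (x axis) in combination in response and anti-PD-1. Points are single libraries, bars are exact 95% counting intervals, the solid line marks no difference and the dotted line a 2-fold difference. Gimap3 and Gimap4 stand highest in both libraries and Gimap9 lowest.

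The classes also differed in depth and in cycling, and these values moved with the Gimap levels. In anti-PD-1 the median was 2448 UMIs per cell in the immature and 1056 in the mature class, and 67.2% against 23.6% of cells held a UMI of the proliferation genes Mki67 or Top2a. In combination in response the medians were 1295 and 1242 UMIs, and the shares 20.9% and 11.1%. Counted per cell without scaling, family UMIs were 1.40 in immature and 3.35 in mature cells of anti-PD-1 (log2 ratio 1.26), and 1.59 and 2.86 in combination in response (log2 ratio 0.85). On this scale Gimap9 turned in direction in anti-PD-1, with 0.614 UMIs per immature and 0.403 per mature cell, whereas Gimap3 (0.0247 and 0.545) and Gimap4 (0.0296 and 0.683) kept theirs. After each cell was thinned to 500 UMIs, a Gimap3 UMI was seen in 0.691% of immature and 16.5% of mature cells of anti-PD-1, and in 0.993% and 8.0% of combination in response. The same shares without thinning were 1.78% and 27.6%, and 2.67% and 18.9%. Tumour cells of anti-PD-1 gave 0.118% after thinning and 0.612% before, at a median of 3064.5 UMIs per cell. By their gate they held no Cd3, Cd79a or Cd79b UMI. This leaves out tumour barcodes with such free RNA, so these shares cannot measure how much free RNA tumour barcodes held.

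Within the Rag2/Dntt-positive cells, those with a Mki67 or Top2a UMI had a lower family level per UMI, but not fewer family UMIs per cell. The family stood at 327 CPM (315 to 339) in 2043 cycling and 1199 CPM (1136 to 1263) in 998 other cells of anti-PD-1, and at 569 CPM (545 to 594) in 1094 cycling and 1071 CPM (1044 to 1098) in 4145 other cells of combination in response. Per cell, these were 1.40 and 1.39 family UMIs in anti-PD-1 and 1.88 and 1.51 in combination in response. Gimap9 was at 0.705 UMIs per cycling and 0.427 per other cell of anti-PD-1, and Gimap5 at 0.0392 and 0.0190. The rest were lower per cycling cell there. Gimap3 was at 0.0176 and 0.0391 and Gimap4 at 0.0210 and 0.0471. Gimap6 was at 0.610 and 0.821 and Gimap8 at 0.0117 and 0.0371. Cycling cells were also deeper, with medians of 3498 against 885.5 UMIs in anti-PD-1 and 2978.5 against 1214 in combination in response. The part of depth in these values was not tested. Against the non-cycling immature cells alone, mature cells of anti-PD-1 were still higher for Gimap3 (log2 ratio 3.54, 3.07 to 4.04) and Gimap4 (3.59, 3.17 to 4.05), while Gimap6 (0.62, 0.50 to 0.74) came closer and Gimap9 was lower (-0.35, -0.53 to -0.16). In combination in response the same ratios were 2.91 for Gimap3, 3.12 for Gimap4, 0.49 for Gimap6 and -0.21 for Gimap9.

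Genes of the wider maturation programme went with the members. Of a list of 10 genes of T cell maturation and survival, 9 were at least 2-fold higher in Rag2/Dntt-negative cells of anti-PD-1 and 7 in combination in response. Klf2, a factor that maintains quiescence and exit from the thymus, was 26.9-fold and 6.55-fold higher. S1pr1, the receptor used to leave the thymus, was 49.3-fold and 8.78-fold higher. Il7r, a chain of the receptor for the survival cytokine IL-7, was 12.9-fold and 6.81-fold higher. Of a list of 8 precursor genes, 7 were tested in each library, since Rag1 was listed at 0 throughout. None was at least 2-fold higher in Rag2/Dntt-negative cells, where 13.7% of all genes tested were in anti-PD-1 and 5.56% in combination in response. At least 2-fold lower were 3 in anti-PD-1 and 2 in combination in response. The share of all genes that much lower was not computed, so these counts are not read as a result about the list. Themis, a signalling protein of thymocyte selection, stood at 1667 CPM in the positive and 1656 CPM in the negative class of combination in response, and at 229 and 213 CPM in anti-PD-1. The Rag2/Dntt-negative cells of combination in response thus carried transcripts of precursors, and how many of them were precursors without a captured Rag2 or Dntt UMI was not tested.

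Levels differed between the subsets split by Cd4 and Cd8a. In Rag2/Dntt-positive Cd4+Cd8a+ cells, the double-positive stage of thymocytes, Gimap3 and Gimap4 were at their lowest or nearly so: 4.02 CPM (2.08 to 7.03) and 5.03 CPM (2.81 to 8.29) in 1052 cells of anti-PD-1, and 8.99 CPM (6.58 to 12.0) and 11.1 CPM (8.43 to 14.4) in 2713 cells of combination in response. Gimap6 and Gimap9 made up 50.9% and 43.5% of the Gimap UMIs of these cells in anti-PD-1, and 44.9% and 42.3% in combination in response. UMIs were not scaled by transcript length, so such shares are compared between classes and not between genes.

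Among Rag2/Dntt-positive cells, those with Cd4 but no Cd8a UMI stood higher than the double-positive cells for Gimap3 and Gimap4. Gimap4 reached 98.9 CPM (64.0 to 146.0) in 168 such cells of anti-PD-1 and 130 CPM (104 to 160) in 516 cells of combination in response, above the double-positive cells of the same library without overlap. Gimap3 reached 51.4 CPM (27.4 to 87.9) and 69.5 CPM (50.9 to 92.7). Rag2/Dntt-positive cells with Cd8a but no Cd4 UMI differed from this: Gimap4 was at 3.43 CPM (1.96 to 5.58) in 1352 cells of anti-PD-1, overlapping the double-positive cells, and at 39.5 CPM (32.4 to 47.8) in 1443 cells of combination in response. Of these Cd8a cells 71.6% held a Mki67 or Top2a UMI in anti-PD-1, against 39.9% of the Cd4 cells. Median UMIs per cell in anti-PD-1 were 2676.5 in these Cd8a cells, 935.5 in the Cd4 cells and 2320.5 in the double-positive cells. In combination in response they were 1285, 1041 and 1380. The subsets rest on detection, and the part of depth in them was not tested. Rag2/Dntt-positive cells with neither Cd4 nor Cd8a also stood above the double-positive cells for Gimap3 and Gimap4. They held 26 and 34 such UMIs among 2049073 in anti-PD-1, and 84 and 68 among 991001 in combination in response. Their Gimap3 level lay above that of the Cd4 cells in combination in response and below it in anti-PD-1.

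Cd4+Cd8a+ cells without a Rag2 or Dntt UMI were intermediate, with Gimap3 at 84.6 CPM (46.2 to 141.9) in 123 cells of anti-PD-1 and 122 CPM (92.0 to 159.0) in 361 cells of combination in response. Among the subsets of both libraries, Cd4 single-positive cells without Rag2 or Dntt had the highest Gimap3 and Gimap4 levels. Next came Rag2/Dntt-negative cells with neither Cd4 nor Cd8a (657 in anti-PD-1, 708 in combination in response). Both genes were lower in the Cd8a single-positive cells. Relative to the Rag2/Dntt-positive double-positive cells of the same library, Cd4 single-positive cells of anti-PD-1 (269 cells) were higher by a log2 ratio of 7.12 (6.38 to 7.98) for Gimap4 and 6.87 (6.03 to 7.85) for Gimap3. Those of combination in response (414 cells) were higher by 5.63 (5.22 to 6.05) and 5.25 (4.79 to 5.74). Cd8a single-positive cells were higher by 6.15 and 6.17 in anti-PD-1 and by 4.89 and 4.84 in combination in response. For Gimap9 the same 4 ratios lay between -0.05 and 0.58.

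**Figure D3:**
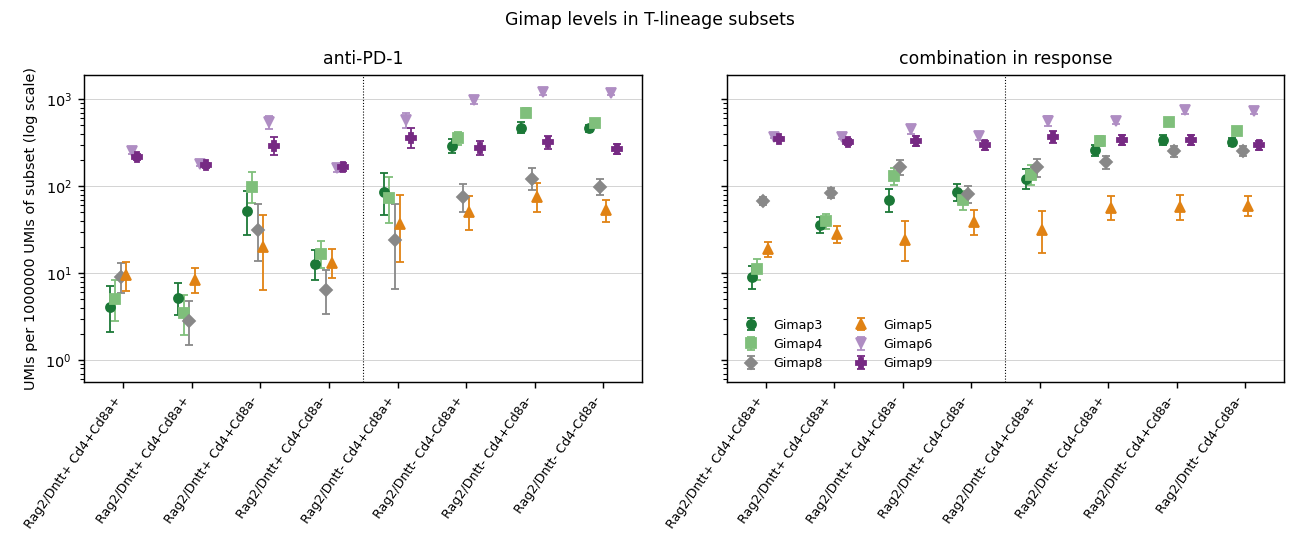
Levels of the 6 detected members in T-lineage subsets of combination in response and anti-PD-1, in UMIs per 1000000 UMIs of the subset (y axis, log scale), with subsets by Rag2/Dntt, Cd4 and Cd8a detection on the x axis. Points are single libraries with exact 95% counting intervals, and the dotted line separates Rag2/Dntt-positive from Rag2/Dntt-negative subsets. Gimap3 and Gimap4 span the range from 3.43 to 701 CPM in anti-PD-1, while Gimap9 stays between 165 and 363 CPM.

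Cd4 and Cd8a single-positive cells without Rag2 or Dntt were set against each other in the 4 libraries with at least 20 cells of each. The family stood at 2901 CPM in Cd4 and 2013 CPM in Cd8a cells of anti-PD-1 (log2 ratio 0.53, 0.40 to 0.66), at 2289 and 1739 CPM in combination in response (0.40, 0.29 to 0.50), at 3750 and 3409 CPM in ERBB2i (0.14, 0.04 to 0.23) and at 2566 and 2194 CPM in combination (0.23, -0.01 to 0.46). Cd4 cells were thus higher in 4 of 4 libraries, with the interval of combination including 0. Gimap4 differed in anti-PD-1 (0.98, 0.68 to 1.28) and combination in response (0.73, 0.50 to 0.97), whereas in ERBB2i it stood at 667 CPM in both (interval of the log2 ratio -0.22 to 0.22) and in combination the ratio was -0.03 (-0.60 to 0.51). Gimap3 was higher in Cd4 cells in all 4 libraries, by 0.32 to 0.70. The difference between libraries in these ratios was not tested.

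Levels in Rag2/Dntt-negative T-lineage cells were next compared across treatments. The family stood at 3524 CPM (3453 to 3596) in 1802 cells of ERBB2i, 2650 CPM (2526 to 2779) in 414 cells of combination, 2405 CPM in anti-PD-1 and 1936 CPM in combination in response. In vehicle only 4 cells passed. Without the mitochondrial and MAD-based filters vehicle held 88 such cells, with the family at 3351 CPM (3100 to 3617). Treated the same way, ERBB2i stood at 3606 CPM, combination at 2901 CPM, anti-PD-1 at 2154 CPM and combination in response at 1836 CPM. The tumour list stood at 1425 CPM in the ERBB2i and 2165 CPM in the combination cells, against 270 CPM in anti-PD-1 and 18.8 CPM in combination in response, and its part in these differences was not tested.

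Combination cells were lower than ERBB2i cells by a log2 ratio of -0.41 (-0.49 to -0.34) for the family. None of the 6 members tested differed by 2-fold in either direction, where 7.43% of 8652 genes did, and all 6 ratios were negative. Gimap6 had the largest, at 819 against 1189 CPM (-0.54, -0.67 to -0.40), followed by Gimap3 at 850 against 1145 CPM (-0.43, -0.56 to -0.30). For Gimap5 and Gimap8 the intervals included 0. The median of all genes was -0.01, and moved by 0.10 under median-of-ratios scaling.

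Combination in response cells were lower than anti-PD-1 cells by -0.31 (-0.37 to -0.26) for the family, but the members went apart. Gimap8 was 2.45-fold higher, at 223 against 90.7 CPM (log2 ratio 1.30, 1.05 to 1.55), and was the 1 member of 6 past 2-fold, where 25.4% of 8593 genes were. Gimap6 was lower (-0.71, -0.80 to -0.62), as were Gimap3 (-0.49, -0.64 to -0.34) and Gimap4 (-0.34, -0.46 to -0.21). Gimap9 was higher by 0.18 (0.03 to 0.34), and the interval of Gimap5 included 0. All genes had a median of 0.25 here. These directions depended on the barcodes set aside: with the gates as written the family ratio was 1.03, that of Gimap3 0.86, of Gimap4 1.01 and of Gimap6 0.64, and 4 members were past 2-fold. Precursor genes also stood higher in the combination in response cells, with 5 of the 7 tested at least 2-fold higher (Themis 7.76-fold, Tcf12 6.31-fold and Arpp21 5.29-fold). The same held in Rag2/Dntt-positive double-positive cells, with 5 of 7 (Themis 4.59-fold, Tcf12 3.18-fold and Arpp21 2.32-fold). This offset was thus not limited to the Rag2/Dntt-negative class, and the part of precursor genes in the Gimap ratios was not tested.

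In Rag2/Dntt-positive double-positive cells combination in response stood above anti-PD-1, with the family at 829 against 495 CPM (log2 ratio 0.75, 0.66 to 0.83). The cells also differed in cycling and depth. A Mki67 or Top2a UMI was held by 22.0% against 68.0% of them, at medians of 1380 against 2320.5 UMIs. The part of cycling and depth in the ratio was not tested. Gimap8 had the largest difference, at 67.2 CPM (60.3 to 74.7) against 9.05 CPM (5.96 to 13.2), 7.43-fold. Gimap3 (2.23-fold) and Gimap4 (2.21-fold) were also past 2-fold, which makes 3 of 6 members where 28.8% of 9202 genes were. Of the 2 lists, 7 of 9 maturation genes and 5 of 7 precursor genes tested were at least 2-fold higher too. Median-of-ratios scaling moved the median of all genes by 0.21 and left only Gimap8 past 2-fold. Counted per cell, the family was at 1.57 against 1.40 UMIs, Gimap6 at 0.702 against 0.715, and Gimap8 at 0.127 against 0.0257.

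Outside the T lineage, NK cells of ERBB2i carried the family at 3599 CPM (3344 to 3869), and the ratio to the T cells of that library included no difference (log2 ratio of T over NK -0.03, -0.14 to 0.08). Their make-up differed, since Gimap4 stood at 874 CPM (751 to 1012) and Gimap9 at 474 CPM (384 to 578) in NK cells, against 619 and 289 CPM in the T cells, whereas Gimap3 stood at 777 CPM (661 to 907), against 1145 CPM. NK cells of combination had the family at 1685 CPM (1391 to 2022), below the T cells of that library (0.65, 0.38 to 0.94). Their B cell markers summed to 3589 CPM, against 542 CPM in the NK cells of ERBB2i, and the part of other cells in this class was not tested.

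Per UMI, B cells had lower levels than mature T cells in each of the 4 libraries with at least 20 cells of both. The family stood at 2150 CPM (1988 to 2321) in ERBB2i, 1619 CPM (1460 to 1790) in combination, 1329 CPM (1252 to 1409) in anti-PD-1 and 1150 CPM (1040 to 1268) in combination in response, and the log2 ratio of T over B lay between 0.71 and 0.86. Gimap3 had ratios from 1.14 to 1.35 and Gimap4 from 0.92 to 1.5. Gimap6 had a ratio of 0.14 (-0.02 to 0.31) in ERBB2i and 0.12 (-0.13 to 0.38) in combination, and made up 43.1% to 50.1% of the Gimap UMIs of B cells. Counted per cell, the family was higher in T than in B cells of ERBB2i (5.19 against 2.79 UMIs) and combination (4.14 against 2.76), but not of anti-PD-1 (3.35 against 3.66) or combination in response (2.86 against 2.99). A Cd3 UMI was present in 108 of 134 B cells of combination in response and in 81 of 307 of anti-PD-1, but in 17 of 234 of ERBB2i and 5 of 138 of combination. The 6 T cell markers summed to 8905 CPM in B cells of combination in response, against 10039 CPM in its mature T cells. In B cells they reached 2568 CPM in anti-PD-1, 546 CPM in ERBB2i and 467 CPM in combination. The part of T cell RNA in the B class was not tested. Barcodes in both gates had the family at 1037 CPM in combination in response and 624 CPM in anti-PD-1.

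Myeloid cells were much lower, at 89.1 CPM (58.2 to 130.5) in 117 cells of ERBB2i and 134 CPM (111.5 to 160.1) in 384 cells of combination. Tumour cells, which by their gate held no Cd3 UMI, had the family at 28.8 CPM (27.3 to 30.3) in ERBB2i, 13.8 CPM (12.1 to 15.7) in anti-PD-1, 11.2 CPM (10.5 to 12.1) in combination and 0.960 CPM (0.708 to 1.27) in vehicle. After thinning, 1.68% of tumour cells of ERBB2i held a Gimap UMI, at a median of 2631 UMIs per cell before thinning, against 78.2% of the Rag2/Dntt-negative T cells, at a median of 1172. The make-up of the Gimap UMIs in tumour cells can be set beside that of the T cells of the library. Gimap3 made up 29.6% of them in tumour and 32.5% in mature T cells of ERBB2i, and 14.2% and 16.3% in anti-PD-1. Other shares lay further apart. In combination Gimap3 made up 24.6% in tumour and 32.1% in mature T cells. In anti-PD-1 Gimap9 made up 19.8% and 12.0%, and Gimap4 12.5% and 20.4%. No endothelial class was used, since the cells in that gate held none of the 6 endothelial markers in combination in response and numbered under 20 elsewhere.

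**Figure D4:**
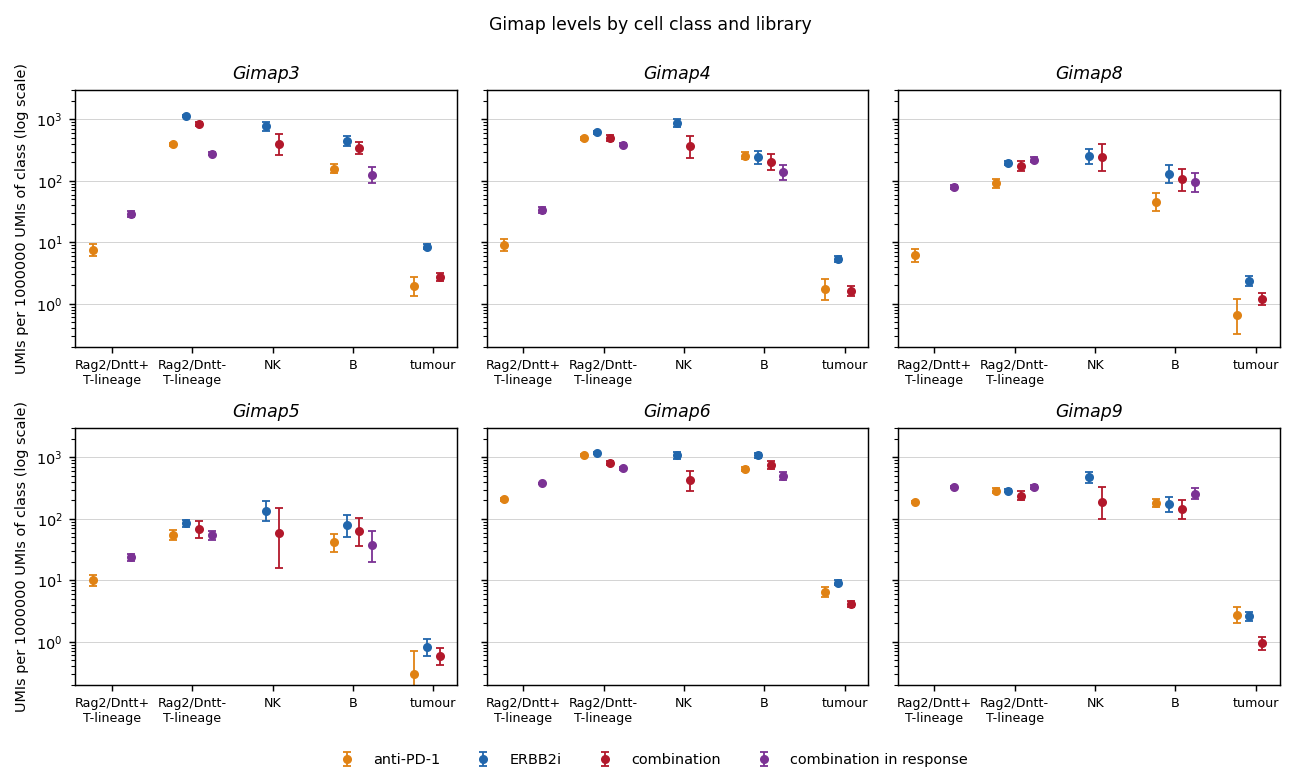
Level of each detected member (y axis, UMIs per 1000000 UMIs of the class, log scale) by cell class (x axis) in anti-PD-1, ERBB2i, combination and combination in response; classes under 20 cells and vehicle are not drawn. Points are single libraries and bars exact 95% counting intervals. Gimap6 and Gimap9 of Rag2/Dntt-positive cells lie at 188 CPM or above, Gimap3 and Gimap4 of the same cells below 40 CPM.

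The ratio of Gimap3 to Gimap4 UMIs separated the libraries in mature T cells. It was 1.85 in Rag2/Dntt-negative T cells of ERBB2i (3038 and 1643 UMIs) and 1.7 in combination (550 and 324), but 0.798 in anti-PD-1 (738 and 925) and 0.718 in combination in response (815 and 1135). In Cd4 single-positive cells it was 1.90 in ERBB2i, 2.05 in combination, 0.672 in anti-PD-1 and 0.623 in combination in response. In Cd8a single-positive cells the same values were 1.52, 1.36, 0.812 and 0.780. B cells followed in ERBB2i, combination and anti-PD-1, at 1.86, 1.71 and 0.612. In combination in response they stood at 0.917 (44 and 48 UMIs), and the interval of the log2 ratio (-0.75 to 0.50) included 0. NK cells had 0.888 in ERBB2i and 1.08 in combination. In mature T cells combination and combination in response, which had received the same agents, lay on opposite sides of this split. ERBB2i and combination shared the 24-base format and also held few Rag2/Dntt-positive cells. Without the mitochondrial and MAD-based filters, the 88 Rag2/Dntt-negative cells of vehicle, a 27-base library, held 168 Gimap3 and 152 Gimap4 UMIs. Treated the same way, anti-PD-1 held 832 and 1048. The cause of the split was not tested.

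**Figure D5:**
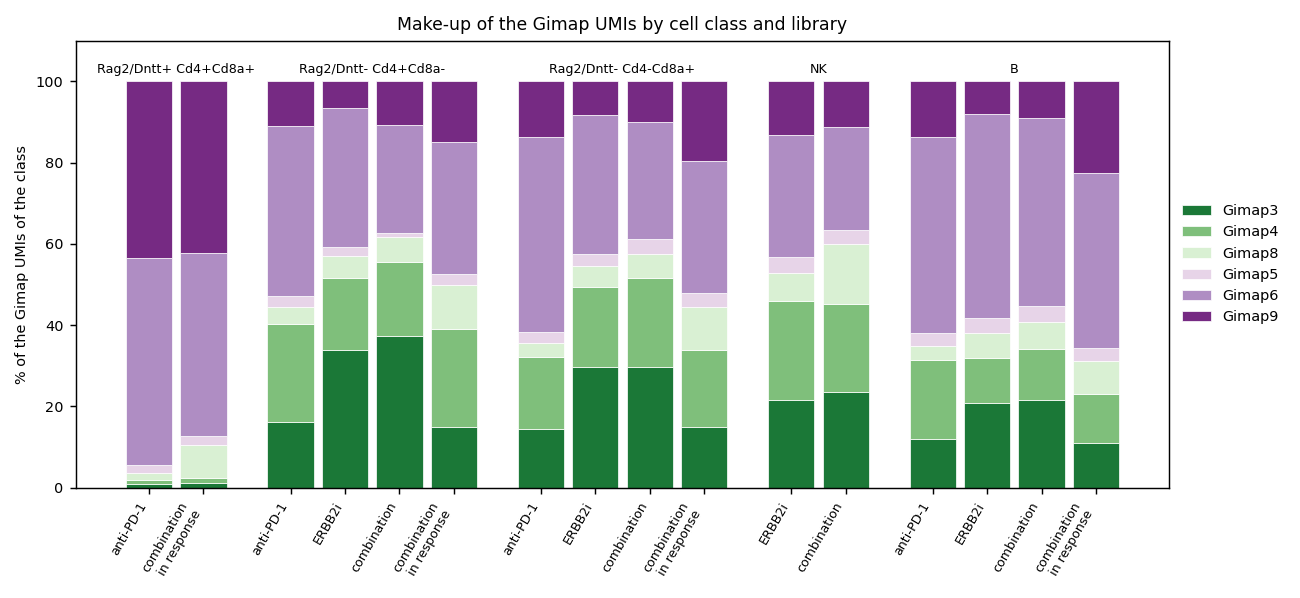
Share of each detected member in the Gimap UMIs of a class (y axis, %), by class and library (x axis); bars sum to 100%. In Rag2/Dntt-positive double-positive cells Gimap6 and Gimap9 make up most Gimap UMIs, and in single-positive T cells Gimap3 takes 29.7% to 37.4% in ERBB2i and combination and 14.4% to 16.2% in combination in response and anti-PD-1.

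Across 28 points, each a lymphocyte class or T subset of a library with at least 20 cells, Gimap3 and Gimap4 went together most closely (Pearson r of log2(CPM + 1) 0.97). Gimap9 was correlated least with the others, with r from 0.15 to 0.41. Between its lowest and highest point Gimap3 spanned 315-fold, from 4.02 to 1267 CPM, Gimap4 255-fold, Gimap8 91.3-fold, Gimap5 16.3-fold, Gimap6 7.87-fold and Gimap9 3.28-fold. Of 7498 other genes, those most like the summed family were Itgb7 (r 0.95), Stk10 (0.95), Evl (0.94), Ly9 (0.93), Ndfip1 (0.93), Klf2 (0.93), Shisa5 (0.93), Fam102a (0.92), Traf1 (0.92) and Cd82 (0.92). Points of a library share its depth and format and some share cells, so these values are descriptions only.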

How the data were processed

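Tumours of 5 groups of mice were dissociated and run on the Singleron SCOPE-chip, and the authors made the gene by barcode tables of UMI counts with CeleScope; the submitters' processing notes also list Cell Ranger, Scanpy and mm10, without roles. The deposited values were whole counts, not normalised. Cells were kept with over 150 genes, at most 8% mitochondrial UMIs and at most 3 median absolute deviations (MADs) above the median, and within 5 MADs for log UMIs, log genes and the share of the top 20 genes. Doublets were marked with Scrublet (scanpy 1.11.5) by its automatic threshold or, where that marked under 0.5%, a score of 0.25; the study used another caller. Every retained cell had at least 500 UMIs. Counts of a class were summed and given as CPM with exact Poisson intervals; ratios have exact conditional intervals (scipy 1.17.1), classes under 20 cells gave no ratio, a count of 0 was bounded by 3 counts, and correlations used a pseudocount of 1. The script was tested on simulated data. The barcodes set aside as tumour cells are an addition to the gates. The members and gene lists were chosen with earlier results of these data known. Named genes were the members, other Gimap symbols, at most 4 genes of each list and the 10 genes most like the family. Motif and promoter entries came from RefSeq; 31966 of 32589 gene identifiers matched GENCODE M39 (GRCm39), used only for overlaps between genes. Alternatives were other filters, gates, scalings and UMI minimums. A comparison of naive with effector T cells and a few genes of the lists are not reported here.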

Additional observations from a re-analysis of the deposited data

Results flagged for a closer look

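A pair of transcripts of the Gimap cluster that are no members had UMIs in T-lineage cells. Gimap1os, on the strand opposite Gimap1, had 303 UMIs in combination in response, 103 in anti-PD-1, 18 in combination and 65 in ERBB2i. Gm28053, the read-through gene, had 157, 39, 13 and 82 UMIs in the same order. Both were above the 3 counts that a count of 0 allows, and whether these UMIs belong to Gimap1, Gimap5 or Gimap7 was not tested.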

How the results depend on the processing

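No paired analysis was possible because each group holds 1 library. Per library and gene, depth limits ratios to classes of at least 20 cells, and vehicle gave none. Of the family ratios and member counts under alternatives, 69 stayed within the 95% counting interval of the reported ratio (for counts, within 1.5 times), 34 moved outside it and 1 reversed; of single members, 207 stayed within it, 67 moved outside and 8 reversed, and the cause was not tested. These values are log2 ratios of the family. Mature over immature cells in anti-PD-1 (2.49) were 2.31 with only the gene minimum as filter, 2.43 with doublets kept, 1.19 with the gates as written, 2.61 with at least 2 Cd3 UMIs, 2.57 without barcodes in both gates and 1.90 as a mean over cells; in combination in response (1.14) they were 1.51 with the gene minimum only, 1.22 with 2 Cd3 UMIs and 0.84 as a mean over cells. Per cell without scaling (chosen after seeing the data, as was the next) these were 1.26 and 0.85, and with non-cycling immature cells only 1.00 and 0.85. Gimap9 in anti-PD-1 (0.63) reversed to -0.65 with the gates as written, -0.60 per cell and -0.35 against non-cycling cells. Combination over ERBB2i (-0.41) was -0.31 with the gene minimum only, -0.93 with the gates as written (1 member past 2-fold against 0), -0.51 under median-of-ratios scaling and -0.32 per cell. Combination in response over anti-PD-1 in mature cells (-0.31) was -0.23 with the gene minimum only, -0.24 with doublets kept, -0.39 without barcodes in both gates, -0.69 as a mean over cells (3 members against 1), -0.43 under median-of-ratios scaling and -0.22 per cell, and reversed to 1.03 with the gates as written (4 members against 1), with Gimap3 at 0.86, Gimap4 at 1.01 and Gimap6 at 0.64; Gimap9 reversed to -0.043 as a mean over cells. In double-positive cells (0.75, 3 members) it was 0.47 with the gene minimum only, 0.33 as a mean over cells, 0.54 under median-of-ratios scaling and 0.16 per cell, with 1 member past 2-fold in each, and Gimap6 reversed to -0.026 per cell.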
